A study of Mus musculus with 6 samples.

Results

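The 7 S100 genes S100a1, S100a4, S100a6, S100a10, S100a11, S100a13 and S100a16 were taken by symbol from 54532 gene IDs counted in mouse embryo heads. They were chosen by name with their counts in mutant against wild-type pools already known, so that difference is described here with no p-value for any of them, and counts of them past a threshold are description only. RNA came from heads at embryonic day 8.5, pooled by 3 before any change of form was visible, with 3 pools of each genotype. Control pools carry the genotype entry WT. Mutant pools carry the entry Sf3b4 NCC mutant and are titled as homozygous nulls, while the design text places the deletion in the neural crest, a migratory population that builds much of the face. Not given in the sources used here are the Cre driver, the strain, the alleles and any transgene of the controls. Sf3b4 encodes a subunit of the splicing complex that recognises branch sites. It was read at 71.4 ± 6.97 CPM in wild-type and 60.4 ± 4.09 CPM in mutant pools (SD, n = 3 each; CPM, counts scaled to library size with TMM factors). That difference did not pass (log2 fold change -0.24, SE 0.0918, edgeR adjusted p = 0.128), and a count per gene cannot show a deleted exon.

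S100 proteins are small calcium-binding proteins with paired EF-hand motifs that act mostly as dimers. On binding calcium they open a surface that docks partner proteins, among them annexins, which bind membranes, and cytoskeletal proteins. S100A10 is the exception: its calcium loops are inactive and it is held in the open form, joined to annexin A2. In the embryo and the adult several S100 genes are known from epithelia, muscle and mesenchyme, and most S100 genes of the mouse lie together on chromosome 3.

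All 7 genes lie on mm10 chromosome 3, in 2 places. S100a1 (chr3:90511034-90514392, minus strand), S100a13 (chr3:90514435-90524581, plus strand), S100a16 (chr3:90537254-90543151, plus strand), S100a4 (chr3:90603771-90606045, plus strand) and S100a6 (chr3:90612882-90624181, plus strand) lie 5.55 to 5.66 Mb before the start of Sf3b4. S100a11 (chr3:93520488-93526287, plus strand) and S100a10 (chr3:93555080-93564643, plus strand) are 28.8 kb apart from each other, 2.9 Mb beyond S100a6 and 2.61 to 2.65 Mb before Sf3b4. All are short, with 511 to 1617 bases of merged exon, lengths at the 2.4th to 11.5th percentile of tested genes. Of the exonic bases of S100a4, 51.7% are shared with Gm42674, a gene on the same strand that held no counts. None of the other 6 shares exonic bases with another annotated gene. The pseudogene S100a11-ps, on chromosome 12, also held no counts in any pool.

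Sequence before the starts was available from RefSeq (GRCm38.p6) for 6 of the 7 genes. The stretches shown include those of S100a11 and S100a6, which both had higher counts in mutant pools and differ in their motifs. The others are that of S100a4, which had hardly any counts, and the interval between the divergent genes S100a1 and S100a13. All are plus-strand sequence, and capitals mark the searched motifs.
S100a11, chr3:93520288-93520487: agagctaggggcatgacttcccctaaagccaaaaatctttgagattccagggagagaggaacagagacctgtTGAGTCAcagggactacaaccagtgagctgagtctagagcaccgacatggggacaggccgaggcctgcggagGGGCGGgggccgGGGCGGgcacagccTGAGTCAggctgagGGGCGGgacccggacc
S100a6, chr3:90612682-90612881: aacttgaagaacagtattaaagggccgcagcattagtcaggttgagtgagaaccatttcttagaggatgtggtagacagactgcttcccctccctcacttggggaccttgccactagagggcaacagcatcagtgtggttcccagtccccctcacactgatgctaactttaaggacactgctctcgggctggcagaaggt
S100a4, chr3:90603570-90603769: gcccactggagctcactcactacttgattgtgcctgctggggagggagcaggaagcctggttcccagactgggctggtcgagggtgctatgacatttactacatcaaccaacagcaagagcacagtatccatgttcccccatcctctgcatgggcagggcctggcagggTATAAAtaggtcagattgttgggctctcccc
S100a1 to S100a13, chr3:90514393-90514434: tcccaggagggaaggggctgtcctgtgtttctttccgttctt

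The motifs searched, on both strands of the 250 bases before each RefSeq start, were the TATA box TATAAA, the GC box GGGCGG, the AP-1 site TGANTCA and the E-box CACGTG. S100a11 holds 3 GC boxes, 64, 52 and 24 bases before its start, AP-1 letters 136 and 38 bases before it, and 1 E-box at 223 bases, outside the stretch shown. S100a4 holds 1 TATA box, 31 bases before its start. The first window of S100a16 and those of S100a1, S100a6 and S100a13 hold none of the 4 motifs, and the second S100a16 window, at an internal start, holds 1 GC box and 1 AP-1 site. Of 32851 windows in the table, 32.7% hold the GC box, 12.4% the TATA box, 6.75% the AP-1 letters and 6.02% the E-box. These matches describe letters and were not tested as binding sites. S100a1 and S100a13 are read in opposite directions, with 42 bases between their GENCODE gene bounds.

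S100a10 was by far the most abundant of the 7 genes and the one whose difference was measured most precisely. Wild-type pools 1, 2 and 3 gave 16.3, 12.9 and 17.6 CPM, and mutant pools 1, 2 and 3 gave 31.2, 28.4 and 27.6 CPM. Every mutant pool lay far above every wild-type pool. The genotypes averaged 15.6 ± 2.44 and 29.1 ± 1.87 CPM (SD, n = 3 each), on 471 and 854 summed counts, a 1.85-fold difference (log2 fold change 0.89, SE 0.121). The log2 fold change stayed between 0.79 and 0.98 over 18 alternative settings, among them each pool left out in turn.

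S100A10 works as a pair with annexin A2, so Anxa2 was read beside it. Anxa2 had 26.2 ± 4.45 CPM in wild-type and 27.7 ± 2.57 CPM in mutant pools and did not pass (log2 fold change 0.06, SE 0.123, edgeR adjusted p = 0.816), and its groups overlapped. Per kilobase of exon, S100a10 stood at 1.65, 1.83 and 2.04 times Anxa2 in the wild-type pools. In the mutant pools the ratio was 3.71, 3.30 and 2.78, above all 3 wild-type values. Ahnak, which encodes a large scaffold bound by the same complex, was at 186 ± 25 and 161 ± 25.4 CPM and did not pass (log2 fold change -0.20, SE 0.12, edgeR adjusted p = 0.339).

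S100a11, the neighbour of S100a10 and a partner of annexin A1, was less abundant. Its wild-type pools gave 1.39, 2.54 and 1.64 CPM and its mutant pools 3.45, 4.10 and 3.25 CPM. The groups did not overlap, although wild-type pool 2 came near to the lowest mutant pool. The means of 1.86 ± 0.607 and 3.60 ± 0.447 CPM (SD, n = 3 each) rested on 52 and 105 counts, a 2.01-fold difference with a wide error (log2 fold change 1.01, SE 0.279). Anxa1 itself had 2.46 ± 0.349 and 2.61 ± 0.0322 CPM and did not pass (log2 fold change 0.11, SE 0.256, edgeR adjusted p = 0.837).

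S100a6, or calcyclin, which binds the ubiquitin ligase cofactor encoded by Cacybp, gave 3.52, 4.38 and 2.67 CPM for wild-type pools 1 to 3 and 6.49, 5.89 and 5.82 CPM for mutant pools 1 to 3. All mutant values were above all wild-type values, and the mutant pools lay close together. They averaged 3.52 ± 0.855 and 6.07 ± 0.364 CPM (SD, n = 3 each), on 100 and 178 counts, a 1.77-fold difference (log2 fold change 0.82, SE 0.214). Cacybp, which was far more abundant at 242 ± 48.8 and 268 ± 16.2 CPM, did not pass (log2 fold change 0.15, SE 0.125, edgeR adjusted p = 0.52).

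S100a16, a widely expressed member, showed the same order with a smaller gap. Its wild-type pools gave 3.15, 4.10 and 3.70 CPM and its mutant pools 5.50, 5.26 and 5.42 CPM. The groups did not overlap. The fitted difference was 1.49-fold (log2 fold change 0.58, SE 0.2), from 3.65 ± 0.475 to 5.39 ± 0.121 CPM (SD, n = 3 each).

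S100a1 and S100a13, the divergent pair, gave no clear difference. S100a1, known from heart and skeletal muscle, gave 0.463, 1.98 and 1.55 CPM for the wild type and 1.56, 1.58 and 1.76 CPM for the mutant. Its groups overlapped, and wild-type pool 1, with 5 counts, was the lowest by a wide margin. Its log2 fold change of 0.35 (SE 0.418) became -0.09 without that pool. S100a13, whose protein takes part in the release of FGF1 and interleukin 1 alpha without a signal peptide, gave 0.556, 1.13 and 1.29 CPM for the wild type and 1.64, 0.842 and 1.35 CPM for the mutant. These values overlapped too, and the log2 fold change was 0.39 (SE 0.421), and 0.08 without wild-type pool 1. With 37 and 47 counts for S100a1 and 29 and 38 for S100a13, a difference of the size seen for S100a10 lies within about 2 standard errors of either estimate.

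S100a4, known from fibroblasts and motile cells and a partner of nonmuscle myosin, held 1 count in all, in mutant pool 1, and none in any wild-type pool. In 29389006 wild-type counts, 0 counts allow a level of up to 0.102 CPM (3 counts over the group, counting error only). Of the exonic bases of S100a4, 51.7% are shared with Gm42674, and the counting program is not given. If reads in shared bases were left out, that bound covers the remaining bases alone. A fold change cannot be given, and S100a4 was not tested.

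**Figure D1:**
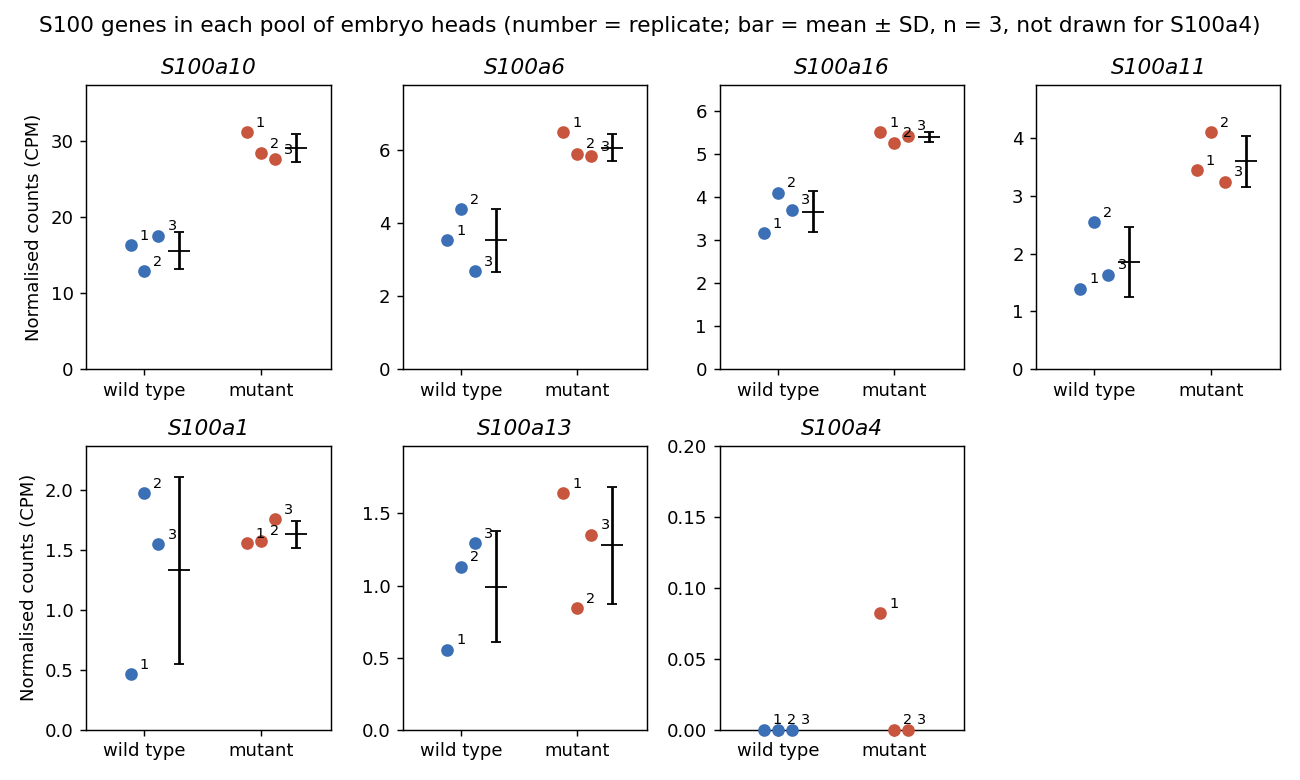
Normalised counts (CPM, linear axis from 0) of each of the 7 S100 genes in the 3 wild-type (blue) and 3 mutant (red) pools, numbered by replicate, with mean ± SD beside them except for S100a4. The mutant pools lie above the wild-type pools for S100a10, S100a6, S100a16 and S100a11, while S100a1 and S100a13 overlap and S100a4 has 1 count in all.

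Of the 7 genes 6 passed the filter on low counts, and 3 of these 6 (S100a10, S100a6 and S100a11) were past the threshold on the higher side (edgeR quasi-likelihood test, adjusted p under 0.05), against 2.65% of 14008 tested genes. In 4 of the 7 the mutant pools lay wholly above the wild-type pools, against 13.8% of tested genes. Both counts only restate how the genes were chosen. The median log2 fold change of the 6 tested genes was 0.70, beside 0.00 over all tested genes. S100a6 was past the threshold in 2 of 6 fits that left out 1 pool, not past it without wild-type pool 3 or any 1 mutant pool, nor by DESeq2. S100a11 was past it in 1 of those 6 fits, the one without wild-type pool 2. Wild-type pool 1 and mutant pool 3 held 1 Y-linked read each, against 344 to 664 in the other 4 pools. Those 4 are called here the pools that hold Y-linked reads. Among them only S100a10 was past the threshold, with log2 fold changes of 0.94 for S100a10, 0.87 for S100a6 and 0.89 for S100a11.

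**Figure D2:**
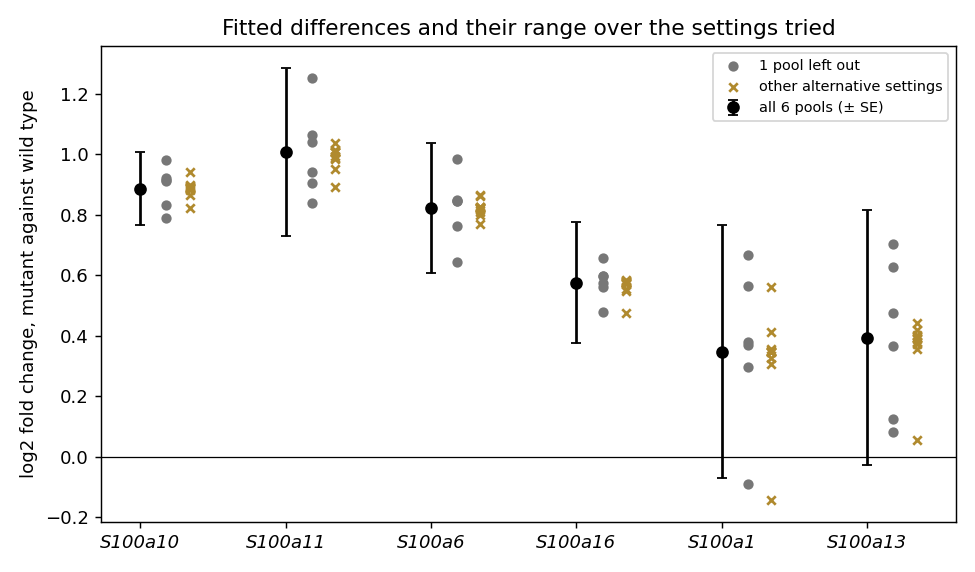
Log2 fold change of mutant against wild-type pools for the 6 tested S100 genes, with all 6 pools (black, ± SE), with 1 pool left out (grey) and under the other settings (crosses). S100a10, S100a11, S100a6 and S100a16 stay above 0 throughout, while S100a1 reaches -0.14.

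Scaled by exon length, the 6 genes kept the same order in both genotypes, from S100a10 at the top through S100a11, S100a6, S100a16 and S100a1 to S100a13. In wild-type pools the mean level was 12.9 ± 2.01 CPM per kb for S100a10 and 3.63 ± 1.19 for S100a11. It was 2.58 ± 0.625 for S100a6, 2.26 ± 0.294 for S100a16, 1.92 ± 1.13 for S100a1 and 1.39 ± 0.541 for S100a13 (SD, n = 3). Only S100a10 stood clear of its neighbour, since the wild-type pool values of the other 5 genes overlapped from one to the next. In mutant pools the levels were 24.0 ± 1.55 CPM per kb for S100a10, 7.05 ± 0.874 for S100a11, 4.44 ± 0.266 for S100a6, 3.34 ± 0.0749 for S100a16, 2.35 ± 0.16 for S100a1 and 1.79 ± 0.567 for S100a13. There each gene stood clear of the next, except S100a1 and S100a13. S100a10 held 52.0% ± 10.1 of the summed length-scaled level of the 17 matched S100 genes in wild-type and 54.6% ± 0.656 in mutant pools, so its share differed by less than the spread between wild-type pools. Among all tested genes with an annotated length, the wild-type level of S100a10 was at the 71.6th percentile and those of the other 5 between the 22.1st and the 40.3rd.

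**Figure D3:**
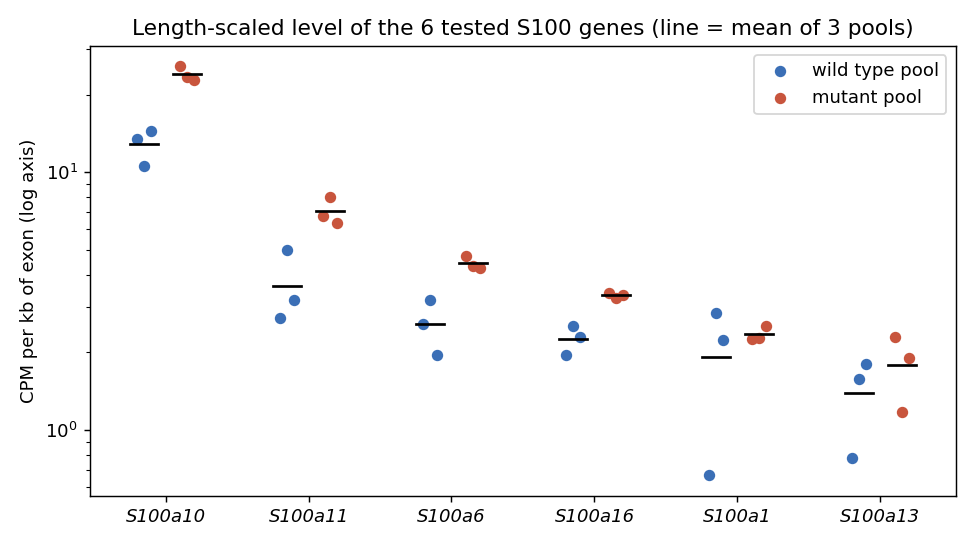
Level of the 6 tested S100 genes in CPM per kb of merged exon (log axis) in each wild-type (blue) and mutant (red) pool, with a line at the mean of 3 pools. The order of the genes is the same in both genotypes, and S100a10 stands above the rest in each.

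Relative to the mean, the pools varied more in the wild-type group for each of the 6 genes. The coefficient of variation of S100a10 was 15.7% in wild-type and 6.45% in mutant pools, where counting alone would give about 7.98% and 5.93%. For S100a16 the spread of 2.25% in mutant pools was below what counting alone gives, 13.8%. The S100a1 spread of 58.7% in wild-type pools was above that of counting, 28.5%. Within a genotype no pool was high or low throughout: in wild-type pools S100a10 was lowest in pool 2, where S100a6, S100a11, S100a16 and S100a1 were highest. Over the 6 pools the closest pair was S100a11 and S100a16 (Pearson r of log2 values 0.953), followed by S100a6 and S100a11 (0.909), and S100a10 correlated at 0.831 with S100a16. These are descriptions over 6 libraries that share the genotype difference.

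The 10 other matched S100 genes were at or near 0, and none passed the filter on low counts. S100a5, S100a7a and S100z, the last on chromosome 13, had no counts in any pool. S100b, a marker of glia on chromosome 10, had 1 count, and S100a2, S100a3 and S100a14 had 1, 2 and 2 in all. S100a8 and S100a9, the paired genes of neutrophils and monocytes, had 3 and 6 counts, of which all 3 and 5 came from mutant pool 1. S100g, on chromosome X, had 2 counts in wild-type and 7 in mutant pools, 6 of them in mutant pool 1, a ratio of 3.55 (95% counting interval 0.676 to 35). The counts of the family therefore came almost wholly from 6 of its genes. Among the 7 fused-type S100 genes, which encode large proteins of the cornified skin and hair, only Tchh was tested and did not pass (log2 fold change 0.41, SE 0.432, edgeR adjusted p = 0.608), and Flg2, Hrnr and Rptn had no counts.

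Genes around the S100 genes were mostly not called. Of 23 tested genes in the span from 0.5 Mb before S100a1 to 0.5 Mb after S100a10, 1 rose and none fell, near the 2.65% higher and 3.88% lower of all tested genes, with a median log2 fold change of -0.05. The one that rose was Tpm3, a tropomyosin gene (0.40, SE 0.0938, edgeR adjusted p = 0.0217), and its call was lost without wild-type pool 2, without any 1 mutant pool and among the 4 pools that hold Y-linked reads. Chtop, the tested gene next to S100a1, did not pass (log2 fold change 0.19, SE 0.0745, edgeR adjusted p = 0.139), and Ilf2 and Snapin beyond it had -0.03 and -0.05. Tchh was the nearest tested gene before S100a11. Between S100a6 and S100a11 only Gm9774, Gm4202 and Tchh were tested, at 1.18, 4.79 and 0.836 CPM in wild-type pools. No tested gene lay after S100a10, and all the other tested neighbours lay before S100a1. Of 163 gene IDs in the span that are no S100 gene, 111 had no counts in any pool. The surroundings of S100a11 and S100a10 were thus hardly sampled.

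**Figure D4:**
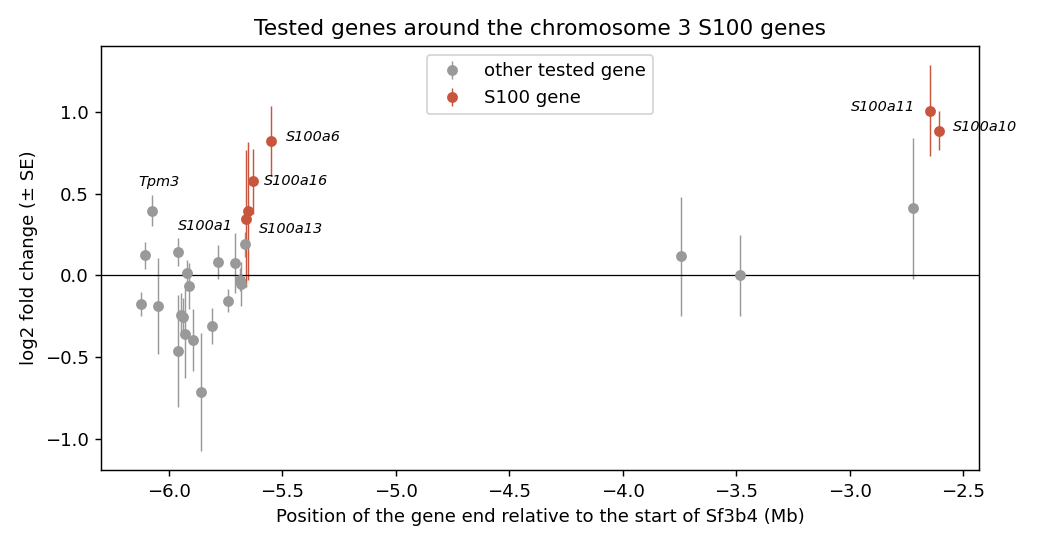
Log2 fold change (± SE) of the tested genes around the S100 genes against their distance before the start of Sf3b4 in Mb. The 6 S100 genes (red) lie between 0.35 and 1.01, and the other 23 tested genes (grey), most of them before S100a1, have a median of -0.05.

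The annexins, the main partners of S100 proteins, showed no called change: of 9 tested, none rose or fell, with a median log2 fold change of 0.12. By edgeR 0 of 9 had an unadjusted p under 0.05, and no annexin was called by DESeq2 or limma-voom. Anxa4 (0.51, SE 0.365, edgeR adjusted p = 0.431) and Anxa5 (0.14, SE 0.0979, edgeR adjusted p = 0.431) came closest. Anxa8, an epithelial annexin below the filter, had 0, 0 and 3 counts for wild-type pools 1 to 3 and 27, 9 and 7 for mutant pools 1 to 3. That is a ratio of 14.5 (95% counting interval 4.65 to 73.2), with more reads in each mutant pool than in any wild-type pool. Anxa8 was singled out after its values were seen. DESeq2 and limma-voom were run on genes past the filter, so they could not call it. Without a low-count filter 1 of 10 annexins was called higher.

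Among 23 tested genes of other S100 partners and receptors none rose and 2 fell, against 2.65% higher and 3.88% lower of all tested genes, and the median was -0.03. After correction for length and GC content 2 of them were called higher and 1 lower, and 1 was called higher without wild-type pool 1 or 3. Myh10, a nonmuscle myosin heavy chain gene, went from 672 ± 31.9 to 532 ± 32.6 CPM (log2 fold change -0.34, SE 0.0746, edgeR adjusted p = 0.0142). Stk38, a kinase gene, fell from 70.9 ± 2.97 to 55.9 ± 1.16 CPM (log2 fold change -0.34, SE 0.0796, edgeR adjusted p = 0.0188). Both genes are in the longest of 5 equal-sized classes of exon length, in which 10.4% of tested genes were called lower. Both calls were lost without mutant pool 1 or 3, that of Myh10 also among the 4 pools that hold Y-linked reads, and that of Stk38 also without wild-type pool 2, without mutant pool 2 and after correction for length and GC content. The receptor genes Ager and Tlr4, which serve extracellular S100 proteins, were at 2.91 ± 0.604 and 1.68 ± 0.25 CPM in wild-type pools and did not pass (edgeR adjusted p = 0.934 and 0.322).

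Other EF-hand genes gave 4 rises and no fall in 47 tested, beside 2.65% higher and 3.88% lower of all tested genes, with a median of 0.11. Hpcal1, a neuronal calcium sensor gene, went from 16.9 ± 0.916 to 29.5 ± 3.45 CPM (log2 fold change 0.81, SE 0.114, edgeR adjusted p = 0.000503). The others were smaller: Sparc, a matrix protein gene (0.34, SE 0.0718, edgeR adjusted p = 0.0108), Fkbp9, of the endoplasmic reticulum (0.26, SE 0.0694, edgeR adjusted p = 0.0362), and Calu, of the secretory pathway (0.26, SE 0.0751, edgeR adjusted p = 0.0485). The call of Hpcal1 held in every alternative fit, and that of Sparc was lost without wild-type pool 2 or mutant pool 1. Those of Fkbp9 and Calu were lost without wild-type pool 2, without any 1 mutant pool and among the 4 pools that hold Y-linked reads, and Calu also without wild-type pool 1, by limma-voom and without robust estimation.

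Marker lists of cell types in the head differed in direction: some sums were higher in mutant pools, that of migrating crest was lower, and the others overlapped. The 15 markers of surface ectoderm, the embryonic skin, summed to 552 to 597 CPM in wild-type and 692 to 737 CPM in mutant pools, and 4 of 15 rose with none lower, among them Sp6 (1.08, SE 0.112, edgeR adjusted p = 4.17e-05) and Cldn6 (0.52, SE 0.0896, edgeR adjusted p = 0.00292). Their median log2 fold change was 0.29, with 14 of 15 positive and Trp63 at -0.18. Of all tested genes 2.65% were called higher. The count of 4 was 2 without mutant pool 3, beside 216 of 14490 tested genes, and 2 among the 4 pools that hold Y-linked reads, beside 249 of 14248. With the Y-linked covariate it was 8, beside 767 of 14008, and after correction for length and GC content 7, beside 647 of 14008. S100a10 made 2.80%, 2.33% and 2.94% of the surface ectoderm sum in wild-type pools 1 to 3, against 4.50%, 3.90% and 3.75% in mutant pools 1 to 3. For S100a6, S100a11 and S100a16 the same share overlapped: wild-type pools reached 0.794%, 0.461% and 0.742%, and mutant pools went down to 0.79%, 0.441% and 0.723%. These shares depend on the abundant markers, which weigh most in the sum. Krt8 and Krt18, at 132.5 and 110.6 CPM in wild-type pools, had log2 fold changes of 0.29 and 0.23. Sp6 and Perp, at 14.2 and 2.86 CPM there, had 1.08 and 1.07, against 0.89 for S100a10. In a bulk sample, a change in the number of cells of a type and a change in RNA per cell cannot be told apart. The summed level of 10 migrating crest markers was 399 to 439 CPM in wild-type and 268 to 314 CPM in mutant pools. Of these markers 7 were called lower, beside 3.88% of all tested genes. Without mutant pool 1 that count was 4, beside 123 of 14253 tested genes. Head mesoderm, endothelium and foregut sums were higher in every mutant pool. Past the threshold on the higher side were 3 of 9, 1 of 10 and 1 of 9 tested genes, beside 2.65% of all tested genes. Of the same tested genes 5, 9 and 7 had a positive log2 fold change, and in the mesoderm list Twist1 had -0.23. Without wild-type pool 1, 2 mesoderm genes were called higher and 2 lower. The mesoderm count was 0 without mutant pool 1, the endothelium count 0 without any 1 mutant pool or wild-type pool 2, and the foregut count 0 without mutant pool 1 or 3 or wild-type pool 2. Neural tube, heart, erythroid, yolk sac and macrophage sums overlapped between the genotypes, and no marker of the 10 lists was at 0 in all pools. The heart sums overlapped through wild-type pool 3 alone. Wild-type pools 1, 2 and 3 gave 193, 168 and 47.7 CPM, against 71.3 to 96.9 CPM in mutant pools. Without wild-type pool 3, 5 of 9 heart markers were called lower, beside 920 of 14297 tested genes. The part of any of these cell types in the S100 values was not tested.

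**Figure D5:**
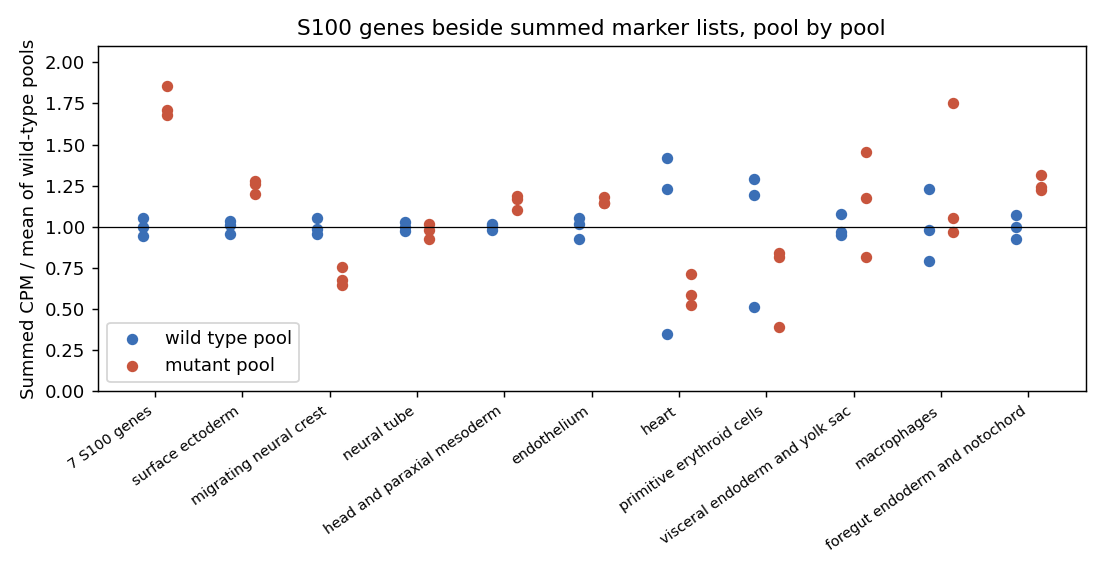
Summed CPM of the 7 S100 genes and of 10 marker lists in each pool, divided by the mean of the wild-type pools (blue wild type, red mutant). The S100 sum was 25.4 to 28.4 CPM in wild-type and 45.2 to 49.9 CPM in mutant pools, of which S100a10 alone averaged 15.6 and 29.1 CPM. The S100 genes were chosen with this difference known, so their gap is not ranked against the lists.

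Longer genes had lower log2 fold changes. Of 5 equal-sized length classes, the shortest, with at most 2309 exonic bases, had a median log2 fold change of 0.07, against a median of -0.10 in the longest. After correction for exon length and GC content the values were 0.82 for S100a10, 0.95 for S100a11, 0.77 for S100a6 and 0.55 for S100a16, and the same 3 genes were past the threshold.

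By their pattern over the 6 pools, 5 other genes were closest to the mean of the S100 genes: Naa20 (Pearson r 0.992), Mrfap1 (0.992), Tspyl4 (0.989), Pgam5 (0.986) and Efr3a (0.985). They were taken from 9367 tested genes with at least 10 CPM, of which 230 had an r of at least 0.9. None lies on chromosome 3, and their log2 fold changes, 0.17 to 0.34, were smaller than those of S100a10, S100a11, S100a6 and S100a16. The mean gave each S100 gene the same weight whatever its counts, S100a4 among them. Among wild-type pools it was lowest in pool 1 (-0.494) and highest in pool 2 (-0.072), as were the 5 genes. S100a10, the most abundant, was instead lowest in wild-type pool 2.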

How the data were processed

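Total RNA libraries of 6 pools were counted by the authors, who deposited raw counts of reads per Ensembl gene ID (whole numbers, not normalised); kits are Qiagen RNeasy micro and Illumina TruSeq Standard Total RNA, per the labels' protocols, and mm10 is the build that the submitters' processing notes name. Not given in the sources used here are the aligner, the counting program, its annotation and whether strand was used. Of 54532 IDs, 54495 matched GENCODE M21 (symbols, coordinates, merged exon lengths). Total counts ran from 6930827 to 12251910 per pool. The labels do not say that pools came from separate litters, so tests measure the spread between these pools. Genes were filtered with filterByExpr (14008 kept), scaled by TMM and tested with edgeR's quasi-likelihood test (robust, two-sided, Benjamini-Hochberg, threshold 0.05); SE is the log2 fold change divided by the square root of F. Pools of a genotype differed beyond sampling noise (chi-square 2.81 to 9.19 per degree of freedom).

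Members, gene lists and tests were chosen with earlier results of these data known. Named genes are the 7 S100 genes, other S100 genes by counts, from each other list up to 5 genes past the threshold by smallest p or else the 2 smallest, Sf3b4 and the 5 closest patterns; partners named beside a gene were chosen after their values were seen. S100a7l2 and Myl12b matched no single ID. Same-numbered pools deviated from their genotype means with correlations of -0.165, 0.063 and -0.061, within the range of the other pairs (-0.215 to 0.282). That gave no sign that the numbers pair the pools, but so few linked values cannot settle it. On simulated counts for this comparison (13803 genes) the edgeR step recovered 64.2% of 1.5-fold, 82.1% of 2-fold and 93.9% of 4-fold changes, with 17 of 177 calls false. The changed genes were drawn at random over all levels. These rates were not split by level and do not give the recovery for genes with as few counts as most S100 genes. Alternatives were DESeq2, limma-voom, other scalings and filters, no robust estimation, a replicate block, each pool left out, Y-linked reads (covariate, or the 4 pools that hold them), a length and GC correction (GC of the longest transcript) and a threshold of 0.1. Tools: edgeR 4.0.16, DESeq2 1.42.0, limma 3.58.1 and R 4.3.3.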

Additional observations from a re-analysis of the deposited data

How the results depend on the processing

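The median log2 fold change of the 6 tested S100 genes stayed within the spread between pools under every alternative. S100a1 ran from -0.09 (reversed, without wild-type replicate 1) to 0.666 with 1 pool left out, and was -0.143 among the 4 pools that hold Y-linked reads. The number of S100 genes past the threshold, 3, was 1 with DESeq2 (which gave no adjusted p for 3 of them), 1 among those 4 pools, and 1 to 3 with 1 pool left out. With the replicate block, by numbers not known to pair the pools, it was 2 (S100a11 not past it), other EF-hand genes gave 2 and all genes 694. Called annexins, 0, were 1 without a low-count filter and 0 to 1 with 1 pool left out. Called partner genes, 2, were 1 among the 4 pools and 0 to 3 with 1 pool left out. Other EF-hand genes, 4, were 7 without a filter, 10 with the Y-linked covariate, 7 at a threshold of 0.1 and 1 to 11 with 1 pool left out. Called neighbours, 1, were 2 without a filter, 2 with the covariate, 0 in the 4 pools and 0 to 4 with 1 pool left out. Over all genes 914 calls became 1658 with the covariate, 535 in the 4 pools, 1550 at 0.1 and 230 to 1810 with 1 pool left out. The filter of at least 1 CPM in 3 pools kept the same 14008 genes. With 29 to 157 counts per genotype for S100a1, S100a11, S100a13 and S100a16, counting error limits what could be seen.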
